A study of Mus musculus with 3 samples.

Results

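Nuclei that carry the marker genes of layer 5 extratelencephalic neurons were rare in the prefrontal cortex (PFC) libraries: 148 of 43464 kept nuclei met the rule used to choose them. The rule selected nuclei on their own counts of unique molecular identifiers (UMIs), so the levels of the genes it used describe the selection and are not findings. A member had at least 3 UMIs summed over *Fezf2*, *Parm1*, *Pou3f1* and *Lratd2*, from at least 2 of these 4 genes, at least 1 UMI of the glutamate transporter gene *Slc17a7* and none of the GABA neuron genes *Gad1*, *Gad2* and *Slc32a1*. It also had at most 2 UMIs of *Cux2*, *Otof* and *Rasgrf2* (upper layers), at most 1 of *Hs3st4* and *Foxp2* (layer 6) and at most 1 of *Tshz2* (near-projecting neurons). All kept nuclei had at least 200 genes and under 10% mitochondrial counts.

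Single nucleus RNA-Seq (snRNA-Seq) was performed on the PFC of male mice of 6–8 weeks, with 1 library from each of 3 groups: C57BL/6J, *Nav1* KO (homozygous for a CRISPR deletion in *Nav1*, bred on C57BL/6J) and the inbred strain BTBR (BTBR T+ Itpr3tf/J). The C57BL/6J mice are labelled wild-type. The tissue of 5 C57BL/6J and of 4 *Nav1* KO mice was pooled before sorting, the number of BTBR mice was not given in the sources used here, and nuclei were sorted with an antibody to NeuN and collected from both the NeuN+ and the NeuN- gate. The protocol names no BTBR mice, so that for this library pooling and the sort were not given. Since each group is 1 library, values between libraries are given with exact 95% intervals that cover counting error only, and no test between libraries was possible.

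Extratelencephalic neurons are the large layer 5 pyramidal cells whose axons leave the cortex for the brainstem, the spinal cord and other subcortical targets. *Fezf2* is the transcription factor that specifies this fate in the developing cortex, and it acts upstream of *Bcl11b* (Ctip2), a zinc finger factor needed for the outgrowth of corticospinal axons. *Tbr1*, the factor of layer 6 corticothalamic neurons, represses *Fezf2*.

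The C57BL/6J library held 33 members, the *Nav1* KO library 55 and the BTBR library 60, of 14630, 14056 and 14778 kept nuclei. They held 188229, 333280 and 296717 counts in all, and their medians of 4828, 5863 and 4752.5 UMIs lay well above the library medians of 2074, 2754 and 2510.5 UMIs. A rule that asks for 3 UMIs of scarce transcripts can select deep nuclei, and its part in these medians was not tested. The deepest C57BL/6J member had 22134 UMIs and gave 11.8% of that library's member counts, whereas the deepest *Nav1* KO and BTBR members gave 4.58% and 3.56%. Of the 148 members 85 sat exactly at the threshold of 3 UMIs, 41 had 4 and 22 had 5 or more, up to 9. A further 174 nuclei lay just outside with 2 UMIs from 2 genes, and 41 had at least 3 UMIs from a single gene. *Fezf2* with *Pou3f1* alone was the most frequent combination, in 61 members, and 36 members had a UMI of 3 or all 4 genes. *Pou3f1*, a POU domain factor, was found in 72.7%, 89.1% and 88.3% of the C57BL/6J, *Nav1* KO and BTBR members and *Fezf2* in 72.7%, 78.2% and 83.3%. Pairs of libraries shared between 61 and 71 cell barcodes, and none of these was a member.

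Members made up 0.226% (95% Clopper-Pearson interval 0.155–0.317) of C57BL/6J nuclei, 0.391% (0.295–0.509) of *Nav1* KO nuclei and 0.406% (0.310–0.522) of BTBR nuclei. The ratio to C57BL/6J was 1.73 (1.11–2.76) for *Nav1* KO and 1.80 (1.16–2.84) for BTBR, and the 2 ratios share the C57BL/6J library. Nuclei chosen in the same way by the middle layer marker *Rorb* (the *Rorb* class) moved the same way, with ratios of 1.83 (1.59–2.12) and 1.44 (1.24–1.68), whereas those chosen by layer 2/3 genes (the layer 2/3 class) were at 1.33 (1.18–1.51) and 0.825 (0.720–0.946) and those chosen by layer 6 genes at 1.01 (0.631–1.63) and 0.812 (0.493–1.33). C57BL/6J was both the shallowest library and the one with the smallest share. To match depth, the 7617, 9479 and 9433 nuclei of at least 2000 UMIs were thinned to that number and the 7013, 4577 and 5345 shallower ones were left out. Of the thinned nuclei 3, 6 and 9 met the rule, with ratios of 1.61 (0.343–9.93) and 2.42 (0.605–13.9), and so few nuclei cannot show whether the difference in share depends on depth. The thinned ratios of the *Rorb* class were 1.34 (1.04–1.75) and 1.38 (1.07–1.78), and those of the layer 2/3 class 0.845 (0.650–1.10) and 0.704 (0.534–0.926). The sort and the dissection also set such shares, and their part was not tested.

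**Figure D1:**
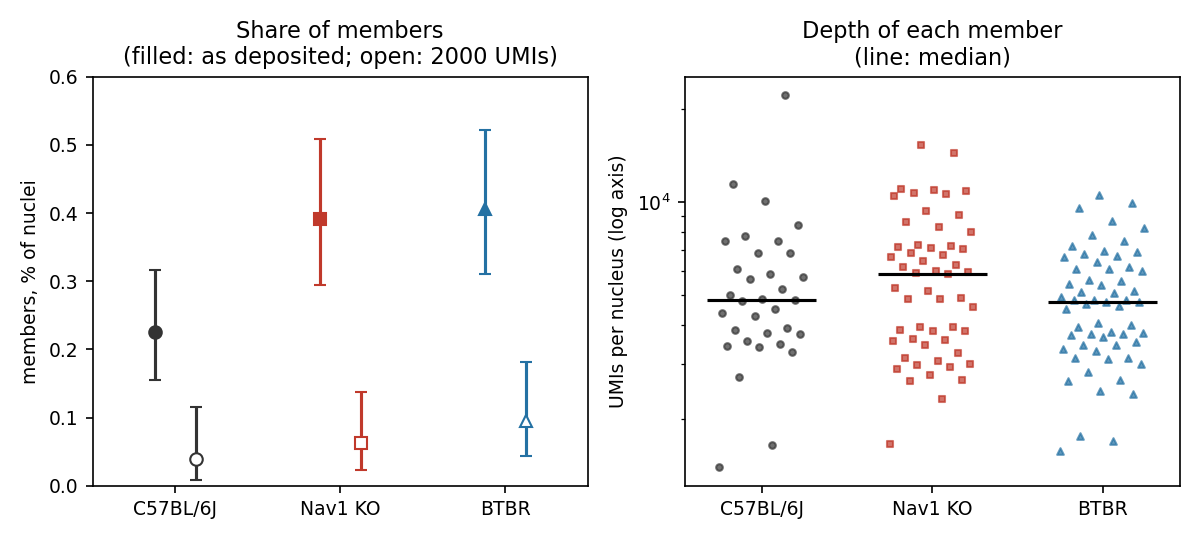
Left, members as a percentage of kept nuclei in each library (filled symbols, all nuclei as deposited; open symbols, nuclei of at least 2000 UMIs thinned to that number), with exact 95% intervals; right, UMIs of each member nucleus on a log axis with the median as a line. The C57BL/6J share of 0.226% is the lowest as deposited, and the thinned shares rest on 3, 6 and 9 nuclei.

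The label was checked with 15 markers of extratelencephalic neurons that the rule did not use. *Bcl11b* (chr12:107910403-108003602, minus strand, mm10) was found at 255, 234 and 249 counts scaled to the library sum (CPM, counts per 1e6 counts) in the C57BL/6J, *Nav1* KO and BTBR members, the order used for every triple of values from here on. These levels were set against 3 classes of excitatory nuclei chosen in the same way by at least 3 UMIs of other layer genes and at most 2 of the 4 rule genes: a layer 2/3 class (*Cux2*, *Otof* and *Rasgrf2*, 1461 nuclei), a *Rorb* class (*Rorb*, a middle layer marker, 1261 nuclei) and a layer 6 class (*Hs3st4* and *Foxp2*, 109 nuclei). *Bcl11b* reached 34.3, 29.96 and 42.7 CPM in the layer 2/3 class, 29.2, 31.8 and 52.7 CPM in the *Rorb* class and 102, 159.9 and 171 CPM in the layer 6 class. All 3 member levels were above all 9 levels of the other classes. The log2 difference was 2.73 ± 0.16 (SE) against layer 2/3 (edgeR quasi-likelihood test, adjusted p = 5.1e-29), 2.62 ± 0.17 against *Rorb* (edgeR adjusted p = 5.6e-27) and 0.74 ± 0.20 against layer 6 (edgeR adjusted p = 0.013). The last call was lost without the C57BL/6J library, without the *Nav1* KO library, with nuclei of 3000 to 8000 UMIs only and without the library term.

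A UMI of *Bcl11b* was found in 69.7%, 72.7% and 66.7% of members. After thinning to 3000 UMIs, which left 30, 46 and 52 members, the share was 53.3%, 58.7% and 50.0%, as against 5.59% to 13.0% in the layer 2/3 and *Rorb* classes and 28.0% to 41.9% in the layer 6 class. Nuclei with oligodendrocyte markers, which should lack the gene, gave 8.11%, 4.72% and 5.38% at 1000 UMIs (medians as deposited of 1026, 1481 and 1407.5 UMIs), and members gave 21.2%, 18.2% and 20% at that depth. The shares of the layer 2/3 and *Rorb* classes at 1000 UMIs, 1.02% to 3.44%, were below this background, and those of the layer 6 class were 5.13%, 18.4% and 25%. Doublets could not be removed from these nuclei, and their part in the share was not tested. At 3000 UMIs only 17, 23 and 15 oligodendrocyte marker nuclei were deep enough, and 29.4% (10.3–56.0), 21.7% (7.46–43.7) and 20% (4.33–48.1) of them had a UMI of *Bcl11b*. Member shares were above these in each library, but the intervals of 34.3–71.7, 43.2–73.0 and 35.8–64.2 overlapped them in all 3.

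Of the 15 markers 12 passed the filter on low counts, and *Vat1l*, *Stac* and *Nefh* did not. All 12 were higher in members than in the layer 2/3 class (over all genes tested 5.69% were higher), 9 were higher than in the *Rorb* class (4.67% of all genes) and 5 higher than in the layer 6 class (2.56% of all genes), and none was lower in any contrast. Their median log2 differences were 1.69, 1.62 and 0.98, where the medians of all 10012 genes lay between -0.01 and -0.00. The same 5 were higher in all 3 contrasts, a result that 1.18% of all genes gave: *Bcl11b*, *Tcerg1l*, *Chst8*, *Npr3* and *Nefm*. Without the C57BL/6J library 1 marker passed in all 3 contrasts, without *Nav1* KO 2 passed, and 2 passed with nuclei of 3000 to 8000 UMIs only.

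*Tcerg1l*, a homologue of a transcription elongation regulator, reached 53.1, 27.004 and 47.2 CPM in members and at most 6.59 CPM in the layer 2/3 and *Rorb* classes. It had no count in the layer 6 class, so that members were at least 6.85-fold higher when the class as a whole is given a floor of 3 counts. *Npr3*, the natriuretic peptide clearance receptor, had 47.8, 33.01 and 26.96 CPM in members and 1 count in the layer 6 class (17.4-fold, 95% interval 2.88–713). *Chst8*, a carbohydrate sulfotransferase, had 47.8, 42.01 and 26.96 CPM in members and 3 counts in the layer 6 class. Its call against that class was lost in 8 of 14 alternatives, DESeq2 and each library left out among them, and that of *Npr3* without C57BL/6J. No member level of these 3 genes was reached in any other class. *Nefm*, the medium neurofilament chain of large axons, reached 63.8, 138 and 87.6 CPM, but its layer 6 levels of 6.36, 53.3 and 75.2 CPM overlapped the members, and its call against that class was lost in 7 of 14 alternatives, DESeq2 and the fits without C57BL/6J and without *Nav1* KO among them. Without *Nav1* KO its call against *Rorb* was lost too. The other 7 tested markers did not pass against the layer 6 class. *Crym*, a thyroid hormone binding protein, had 63.8, 69.01 and 74.1 CPM in members and 82.7, 96.9 and 95.7 CPM in the layer 6 class (log2 -0.31 ± 0.31, edgeR adjusted p = 0.73). *Pcp4*, a calmodulin regulator, had 42.5, 30.005 and 74.1 against 50.9, 92.1 and 95.7 CPM (log2 -0.70 ± 0.34, edgeR adjusted p = 0.3). Members thus carried *Bcl11b* and a part of the wider marker set.

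**Figure D2:**
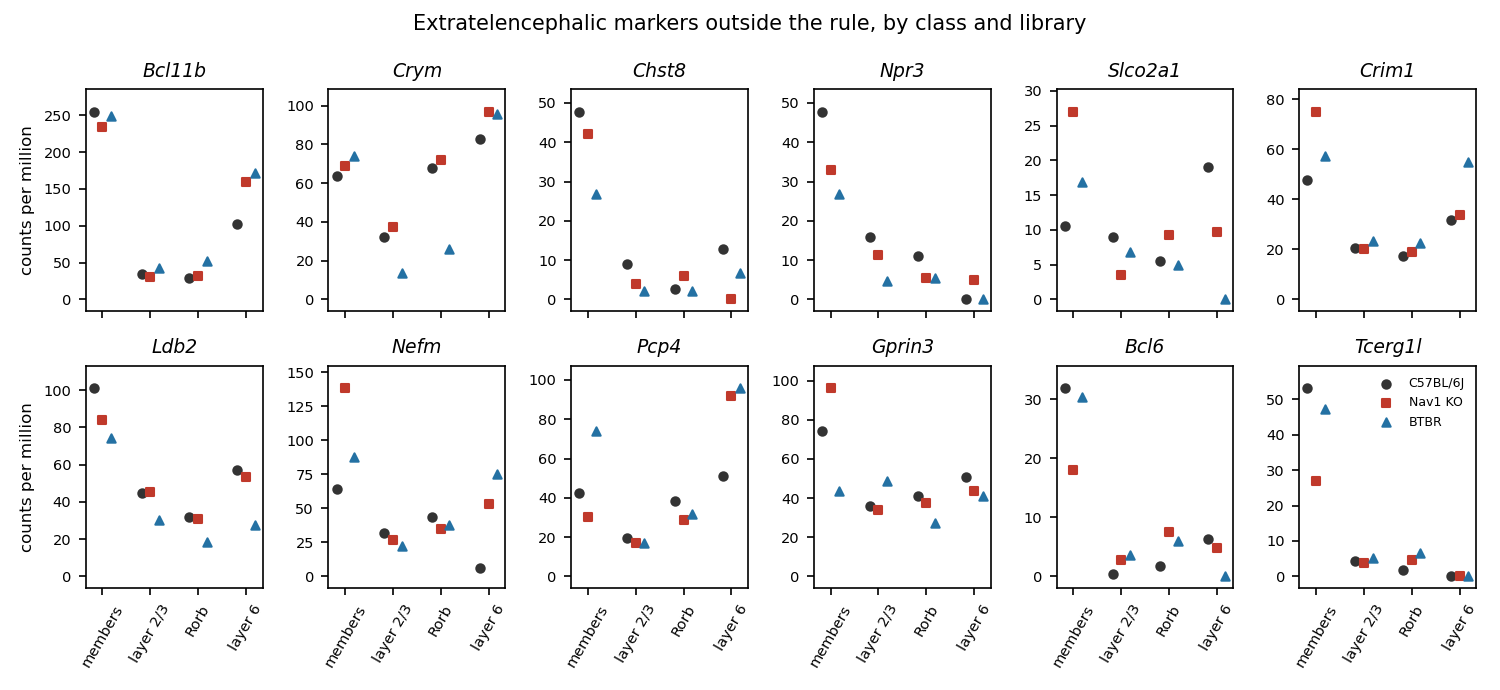
CPM of the 12 tested markers that the rule did not use, in members and in the 3 other classes (one panel per gene, axes linear and from about 0, one symbol per library). *Bcl11b*, *Chst8*, *Npr3* and *Tcerg1l* are highest in members in all 3 libraries, whereas *Crym* and *Pcp4* are higher in the layer 6 class in all 3 libraries.

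The markers were seen nucleus by nucleus in the same way. A member had a UMI of a median of 3 of the 15 markers in each library, with ranges of 0 to 8, 0 to 9 and 0 to 8. At least 3 markers were found in 63.6%, 61.8% and 56.7% of members, in 6.65% to 14.6% of layer 2/3 nuclei and in 17.9%, 34.2% and 25% of layer 6 nuclei. In total 5 members had none (2, 2 and 1 by library). When members were thinned to 3000 UMIs, 43.3%, 41.3% and 32.7% had at least 3, as against 16%, 19.4% and 13.0% of layer 6 nuclei at that depth. Nuclei with oligodendrocyte markers, the background for these shares, had at least 3 in 1.39%, 2.88% and 0.704% as deposited and in 11.8%, 13.0% and 6.67% of the 17, 23 and 15 that reached 3000 UMIs. The layer 6 shares at 3000 UMIs lay close to that background and are not read as expression of the set.

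Across all genes the members differed from each class. Counts were summed per class and library, 12 sums in all, and tested with edgeR with the library as a term, leaving out the 15 genes used to choose the classes. Members had 570 genes higher and 595 lower (5.94% of genes tested) than the layer 2/3 class, 468 and 517 (5.16% lower) against the *Rorb* class and 256 and 234 (2.34% lower) against the layer 6 class, whose sums were the smallest (157210, 206393 and 146236 counts). In all 3 contrasts 118 genes were higher and 64 lower (0.639% of genes tested), and 116 and 62 of these had the same sign in every library for every class. Without the *Nav1* KO library, which has the most counts, 44 and 21 passed, of which 43 and 21 were among the 118 and 64, and without C57BL/6J 73 and 29 passed, of which 69 and 27 were. The genes tested were not used to choose nuclei, but they were read in the same nuclei and classes the rule defined.

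The 12 genes most raised in members over all 3 classes, among those at 50 CPM or more, were *Trmt9b*, *Adamts18*, *Coro6*, *Raver2*, *Npnt*, *Serpine2*, *Cald1*, *Kcnn2*, *Cacna1h*, *Bcl11b*, *Tmem200a* and *Etv1*. *Coro6*, a coronin that binds actin, was at 207, 255 and 310.1 CPM in members and at 9.69 to 91.4 CPM in the other classes and libraries, with log2 differences of 2.75 ± 0.16 against the layer 2/3, 1.85 ± 0.15 against the *Rorb* and 3.38 ± 0.32 against the layer 6 class. *Serpine2*, a secreted protease inhibitor (protease nexin), was at 186, 207 and 182 CPM in members and at 14.5 to 74.05 CPM elsewhere. In neither gene did a class overlap the members. *Etv1*, an ETS factor known from layer 5, was at 218, 141 and 202 CPM in members, 73.1, 76.97 and 96.1 CPM in the *Rorb* class and 26.3 to 96.1 CPM over all other sums (log2 2.49 ± 0.18 against the layer 2/3, 1.09 ± 0.16 against the *Rorb* and 2.44 ± 0.31 against the layer 6 class). *Trmt9b*, a member of a tRNA methyltransferase family, was at 63.8, 105 and 77.5 CPM, with a single count in the layer 6 class (43.6-fold, 95% interval 7.58–1747). The extracellular matrix genes *Adamts18*, a metalloprotease, and *Npnt*, nephronectin, were at 85.003, 105 and 40.4 and at 31.9, 57.01 and 67.4 CPM. For *Adamts18*, *Raver2*, *Npnt*, *Cald1* and *Tmem200a* the layer 6 class held only 1 to 3 counts, so their fitted differences from that class depend on very few reads. *Tmem200a* lost its calls in all 3 contrasts without *Nav1* KO.

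Among the genes most reduced in members, *Nptx1*, neuronal pentraxin, a secreted protein that clusters AMPA receptors, was at 37.2, 18.003 and 16.9 CPM in members and 61.2 to 321 CPM elsewhere (log2 -1.92 ± 0.29 against the layer 2/3, -1.87 ± 0.29 against the *Rorb* and -3.56 ± 0.29 against the layer 6 class). *Ncald*, a calcium sensor, was at 31.9, 33.01 and 23.6 as against 67.6 to 216 CPM, and *Rasgef1b*, an exchange factor for Ras family proteins, at 47.8, 27.004 and 37.1 as against 91.2 to 149 CPM. Both fell below every sum of the other classes. *Tbr1* was at 10.6, 9.0014 and 20.2 CPM in members and 76.3, 38.8 and 82.1 CPM in the layer 6 class, with log2 differences of -1.19 ± 0.40 against the layer 2/3, -1.60 ± 0.38 against the *Rorb* and -2.18 ± 0.47 against the layer 6 class. Since *Tbr1* is a factor of layer 6 neurons, the choice of the layer 6 class fixes the direction of the last difference. The call against layer 2/3 (edgeR adjusted p = 0.033) was lost in 8 of 14 alternatives, among them the fits without C57BL/6J and without *Nav1* KO and DESeq2. The other 8 were *Pxdn*, *Kcnk2*, *March1*, *Gnal*, *Nrp2*, *Tmem158*, *Etl4* and *St6gal2*. Over the 3 contrasts and 14 alternatives, *Gnal* lost 12 of 42 calls, 9 of them against *Rorb* (each library left out among them), *Nrp2* lost 8 and *Tmem158* lost 7. Without *Nav1* KO the calls of *Tbr1* against *Rorb*, *Kcnk2* against layer 2/3 and *St6gal2* against layer 6 were lost as well, and without C57BL/6J that of *March1* against layer 6. *Pxdn*, a peroxidase of the extracellular matrix, was at 31.9, 33.01 and 20.2 CPM in members and 143, 172 and 45.3 CPM in layer 2/3 nuclei, where BTBR stood well below the other libraries. In the fit without the library term *Pxdn* lost its calls in all 3 contrasts.

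**Figure D3:**
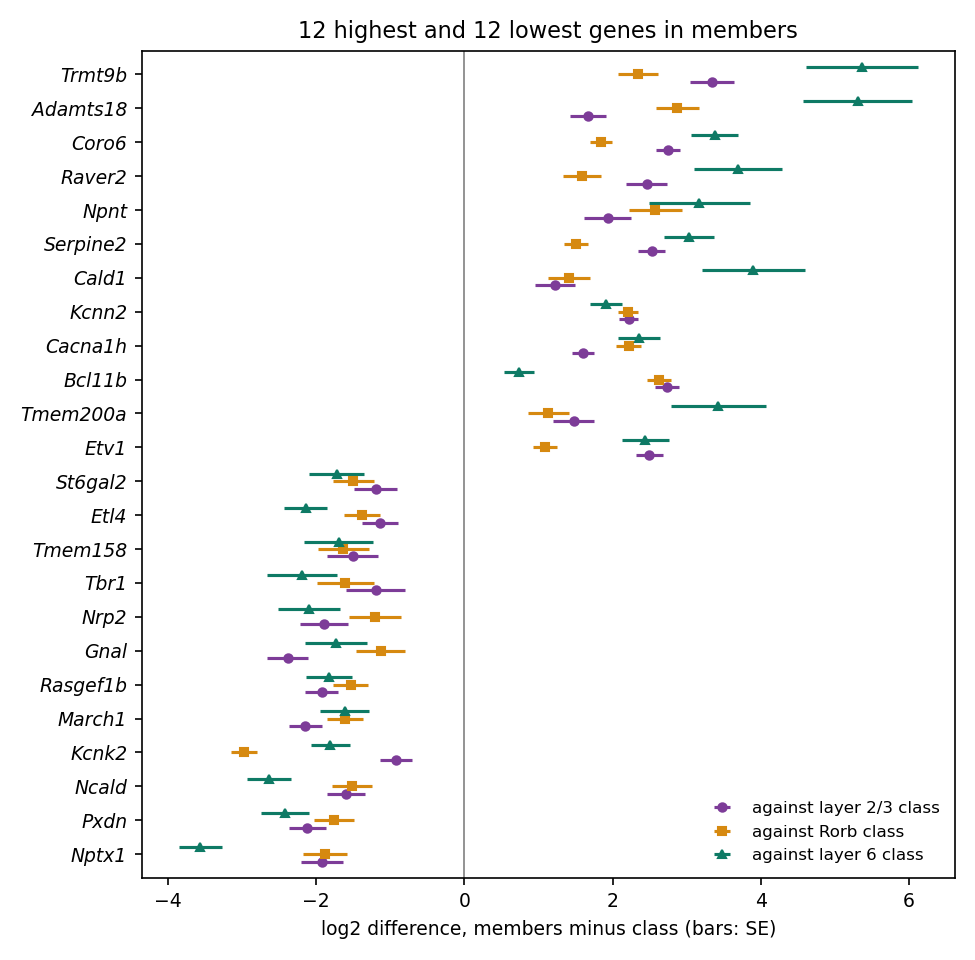
Fitted log2 differences of members minus each class for the 12 highest and 12 lowest genes that passed in all 3 contrasts; bars are the SE of the edgeR fit over 3 libraries. The choice of genes puts all differences of a gene on one side of 0, and the widest bars are those against the layer 6 class.

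Ion channel genes were called in both directions. Of 32 potassium and HCN channel genes tested, 3 were higher and 9 lower than in layer 2/3, 5 and 9 against *Rorb* and 4 and 3 against layer 6, with medians between -0.15 and -0.13. Over all genes, 5.69% were higher and 5.94% lower than in layer 2/3, 4.67% and 5.16% against *Rorb*, and 2.56% and 2.34% against layer 6. These shares are the background for each gene group below, and whether a group exceeds them was not tested. *Kcnn2*, a small conductance calcium-activated potassium channel, was at 260.3, 360.1 and 320.2 CPM in members and 65.2 to 114 CPM elsewhere, and it was higher in all 3 contrasts. *Kcnk2*, the leak channel TREK-1, was lower in all 3, at 74.4, 36.01 and 60.7 CPM in members and 421, 399 and 415 CPM in the *Rorb* class, as was *Kcna4*, an A-type channel, at 26.6, 24.004 and 43.8 as against 72.8 to 97.4 CPM. *Kcnip2*, the A-type channel auxiliary subunit, was lower than in layer 2/3 and *Rorb* nuclei (log2 -2.83 ± 0.37 and -2.45 ± 0.40), and its difference from layer 6 of -1.75 ± 0.60 did not pass (edgeR adjusted p = 0.08). With C57BL/6J, *Nav1* KO and BTBR left out in turn, 4, 3 and 4 were higher than in *Rorb*, and 3, 1 and 2 were lower than in layer 6, and without *Nav1* KO the calls of *Kcnk2* against layer 2/3 and of *Kcna4* against layer 6 were lost.

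Among 24 sodium and calcium channel genes, 6 were higher and 6 lower than in layer 2/3 (5.69% and 5.94% of all genes). The counts were 5 and 2 against *Rorb* (4.67% and 5.16%) and 4 and 3 against layer 6 (2.56% and 2.34%). *Cacna1h*, the pore of a T-type low threshold calcium channel, was at 191, 195 and 243 CPM in members and 31.8 to 75.3 CPM elsewhere (log2 1.60 ± 0.15 against the layer 2/3, 2.22 ± 0.17 against the *Rorb* and 2.36 ± 0.28 against the layer 6 class). *Cacna2d3*, an auxiliary calcium channel subunit, and *Scn1a*, a voltage-gated sodium channel, were also higher in all 3, with mean log2 differences of 0.88 and 0.65. The call of *Cacna2d3* against *Rorb* was lost in 6 of 14 alternatives, among them DESeq2 and the fits without C57BL/6J and without *Nav1* KO, and that of *Scn1a* against layer 6 without *Nav1* KO. No gene of the group was lower in all 3. With each library left out in the same order, 5, 4 and 3 were lower than in layer 2/3, 4, 3 and 5 were higher than in *Rorb*, 0, 2 and 2 were lower than in *Rorb*, 4, 2 and 3 were higher than in layer 6, and 1, 0 and 1 were lower than in layer 6.

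Of 15 cytoskeletal genes of large axons tested, 7 were higher and 0 lower than in layer 2/3 (5.69% and 5.94% of all genes). There were 6 and 0 against *Rorb* (4.67% and 5.16%) and 2 and 1 against layer 6 (2.56% and 2.34%). The medians in these contrasts were 0.43, 0.30 and 0.07. *Nefl*, the light neurofilament chain, was at 47.8, 42.01 and 74.1 CPM in members and 27.3, 25.8 and 25.5 CPM in layer 2/3 nuclei. *Ina*, alpha-internexin, was at 47.8, 66.01 and 64.03 and 39.04, 32.2 and 27.1 CPM in the same order. Both passed against layer 2/3 and *Rorb* and neither against layer 6 (edgeR adjusted p = 0.47 and 0.72). Without BTBR both lost both calls, without *Nav1* KO *Ina* lost both and *Nefl* that against *Rorb*, and over the 14 alternatives *Nefl* lost its call against *Rorb* in 9, each library left out among them, and *Ina* in 5. *Stmn3*, a microtubule destabilizer, was higher in all 3, at 101, 198 and 253 CPM, with its call against layer 6 lost in 6 of 14 alternatives and against *Rorb* in 3. When C57BL/6J, *Nav1* KO and BTBR were left out in turn, 7, 5 and 2 were higher than in layer 2/3, 4, 1 and 3 were higher than in *Rorb*, 0, 0 and 2 were higher than in layer 6, and 0, 0 and 0 were lower than in layer 6. No gene of the group passed in all 3 contrasts with DESeq2, without C57BL/6J or without *Nav1* KO.

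Of 36 axon guidance and adhesion genes tested, 15 were higher and 6 lower than in layer 2/3 (5.69% and 5.94% of all genes). Against *Rorb* 12 and 6 passed (4.67% and 5.16%), and 8 and 4 did against layer 6 (2.56% and 2.34%). The Slit receptor *Robo1*, the cadherin *Cdh8* and the ephrin receptor *Epha5* were higher in all 3 contrasts, *Robo1* at 58.4, 72.01 and 53.9 CPM in members and 12.7 to 39.04 CPM elsewhere. *Robo1* lost its call against layer 2/3 in 8 of 14 alternatives, DESeq2 and each library left out among them, *Cdh8* its call against *Rorb* in 5, of the 3 only *Epha5* passed in all contrasts without *Nav1* KO, and none did without the library term. *Nrp2*, a neuropilin that binds class 3 semaphorins, was lower in all 3, at 10.6, 6.0010 and 40.4 CPM as against 34.7 to 108 CPM, although BTBR members reached the range of the *Rorb* class and the call against that class was lost in 7 of 14 alternatives. Its counterpart *Nrp1* was at 95.6, 102 and 84.3 CPM in members, higher than in layer 2/3 and *Rorb* nuclei (log2 1.96 ± 0.23 and 1.74 ± 0.23) and not different by the test from layer 6 nuclei at 204, 159.9 and 88.9 CPM. *Plxnd1*, a semaphorin receptor, was at 10.6, 0 and 13.5 CPM in members and 54.1, 43.4 and 52.05 CPM in layer 2/3 nuclei (log2 -2.76 ± 0.43). *Unc5d*, a netrin receptor of upper layers, was at 10.6, 12.002 and 13.5 and 61.1, 67.6 and 83.8 CPM (log2 -2.59 ± 0.34). In fits without C57BL/6J, *Nav1* KO and BTBR, 8, 7 and 11 were higher than in *Rorb*, 3, 4 and 6 were lower than in *Rorb*, 5, 4 and 7 were higher than in layer 6, and 2, 2 and 3 were lower than in layer 6.

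Of 19 projection neuron transcription factor genes tested, 7 were higher and 4 lower than in layer 2/3 (5.69% and 5.94% of all genes). The *Rorb* contrast gave 7 and 5 (4.67% and 5.16%) and the layer 6 contrast 3 and 4 (2.56% and 2.34%). *Nfib* and *Nfia*, nuclear factor I genes of deep layers, were at 632, 498 and 553 and 154, 81.01 and 84.3 CPM in members, higher than in layer 2/3 and *Rorb* nuclei and without a call against layer 6, although *Nfia* lost its call against *Rorb* without C57BL/6J. *Mef2c*, an activity-regulated factor, was lower than in both upper classes and higher than in layer 6, at 1689, 1242 and 1193 CPM in members, 2441, 1885 and 1639.5 CPM in layer 2/3 and 909.6, 974 and 814 CPM in layer 6 nuclei. *Bcl11b* and *Etv1* were the 2 genes higher in all 3 contrasts, and *Tbr1* and *Mef2a* the 2 lower in all 3. *Mef2a* lost its call against layer 2/3 in 12 of 14 alternatives and against *Rorb* in 10, each library left out among them, and neither gene passed in all 3 contrasts with DESeq2 or limma voom. Of the group, 1, 2 and 2 were lower than in layer 2/3, 4, 6 and 6 were higher than in *Rorb*, and 4, 3 and 3 were lower than in *Rorb* without C57BL/6J, *Nav1* KO and BTBR. Of 8 layer 6 corticothalamic genes 7 were lower in members than in the layer 6 class, a direction that the choice of that class fixes. Against layer 2/3 1 was higher and none was lower, and 1 was lower than in *Rorb*. Without BTBR 1 was lower than in layer 2/3 as well.

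*Gria2*, the AMPA receptor subunit that limits calcium entry, was at 5801, 5589.9 and 6542 CPM in members and higher in all 3 contrasts by log2 0.25 ± 0.06, 0.41 ± 0.06 and 0.22 ± 0.07. The kainate receptor gene *Grik2* was also higher in all 3, at 239, 183 and 199 CPM in members. *Gria2* lost its call against layer 6 in 7 of 14 alternatives and *Grik2* its call against layer 2/3 in 5 and against layer 6 in 4. No glutamate receptor gene passed in all 3 contrasts without C57BL/6J, without *Nav1* KO or with at least 4 UMIs. In contrast, *Gria4* was lower than in layer 2/3 and *Rorb* nuclei (log2 -1.15 ± 0.15 and -1.62 ± 0.15). Over the 22 glutamate receptor genes tested, 4 were higher and 2 lower than in layer 2/3 (5.69% and 5.94% of all genes). The numbers were 9 and 1 against *Rorb* (4.67% and 5.16%) and 5 and 2 against layer 6 (2.56% and 2.34%). Without C57BL/6J, *Nav1* KO and BTBR, 1, 1 and 2 were lower than in *Rorb*, 2, 1 and 4 were higher than in layer 6, and 2, 1 and 2 were lower than in layer 6. Of 20 receptor genes for monoamines, acetylcholine and peptides, 5 were higher and 2 lower than in layer 2/3, 4 and 2 against *Rorb* and 2 and 2 against layer 6. The shares of all genes are those just given, and no gene of this group passed in all 3 contrasts. Without *Nav1* KO these counts were 3 and 2, 1 and 0, and 0 and 0. *Htr1f*, a serotonin receptor, was at 170.0, 183 and 118 CPM in members, 36.2, 37.4 and 21.9 CPM in layer 2/3 and 204, 199 and 150.4 CPM in layer 6 nuclei. *Adra1a*, an alpha-1 adrenergic receptor, was at 15.9, 57.01 and 40.4 and 11.8, 7.97 and 4.68 CPM in members and layer 2/3 nuclei.

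*Nav1*, the gene the study deleted, was higher in members than in each other class, whereas its relatives were lower. The neuron navigators are microtubule-associated proteins that take part in axon growth. *Nav1* (chr1:135434580-135607295, minus strand, mm10) was at 765, 480.1 and 179 CPM in members, 364, 279 and 143 CPM in layer 2/3, 273, 219.6 and 121 CPM in *Rorb* and 191, 87.2 and 82.1 CPM in layer 6 nuclei. In each library the members held the highest level of the 4 classes. The log2 difference was 0.76 ± 0.11 against the layer 2/3, 1.11 ± 0.11 against the *Rorb* and 2.01 ± 0.19 against the layer 6 class (edgeR adjusted p = 6.8e-09, 1.8e-14 and 2.8e-15). The calls against layer 2/3 and *Rorb* were lost in the fit without the replicate block (the library term). *Nav2* was at 383, 264 and 317 CPM in members and lower than each class by log2 -0.43 ± 0.10, -0.44 ± 0.11 and -0.68 ± 0.14, and *Nav3* was at 345, 273 and 327 CPM and lower by -0.62 ± 0.10, -0.60 ± 0.11 and -0.55 ± 0.14. Without the *Nav1* KO library neither relative passed in all 3 contrasts.

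Of the 18 tested genes that the study names in its account of these libraries, 3 were higher and 5 lower in members than in layer 2/3. This compares with 5.69% and 5.94% of all genes. A further 2 contrasts gave 6 and 6 against *Rorb* (4.67% and 5.16%) and 4 and 2 against layer 6 (2.56% and 2.34%). *Nav1* and *Etv1* were higher in all 3 contrasts. *Ppp3ca*, the catalytic subunit of calcineurin, was lower in all 3, at 691, 507 and 529 CPM in members and 704 to 967 CPM elsewhere (log2 -0.72 ± 0.08 against the layer 2/3, -0.45 ± 0.09 against the *Rorb* and -0.57 ± 0.11 against the layer 6 class), with its call against layer 6 lost without *Nav1* KO. *Prkcb*, a protein kinase C gene, was at 393, 288 and 337 CPM in members and 171, 168 and 162 CPM in layer 2/3 nuclei, and passed against layer 2/3 and *Rorb*. *Cck*, the cholecystokinin gene, was lower than in the same 2 classes, at 143, 132 and 179 CPM in members and 164, 216 and 235 CPM in layer 2/3 nuclei. The C57BL/6J levels of *Cck* were the closest, and its call against layer 2/3 was lost in 4 of 14 alternatives, DESeq2 and the fit without *Nav1* KO among them. Over the list, 2, 3 and 2 were higher than in layer 6, and 2, 0 and 2 were lower than in layer 6 when C57BL/6J, *Nav1* KO and BTBR were left out in turn.

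Genes of other excitatory neurons were present in members. The 10 genes of layer 5 and middle layer intratelencephalic neurons summed to 361, 306 and 404 CPM in members, 180.1 to 197 CPM in the layer 2/3 class and 446 to 485 CPM in the *Rorb* class, and *Etv1*, which is on that list too, gave 41, 47 and 60 of the 68, 102 and 120 member counts. The 8 layer 2/3 genes summed to 398, 423 and 509 CPM in members, with *Lamp5* the most abundant in *Nav1* KO and BTBR members. They summed to 592, 559 and 571 CPM in the layer 2/3 class itself. The sums were 283 to 334 CPM in the *Rorb* class and 229, 194 and 205 CPM in the layer 6 class. Of the 9 olfactory bulb mitral or tufted cell genes, the defining factors *Eomes*, *Lhx1*, *Lhx5* and *Tbx21* were at 0 in members of all 3 libraries, and the summed level of 53.1, 87.0 and 77.5 CPM came mainly from *Doc2g*. Of 9 striatal medium spiny neuron genes, which matter because those neurons express *Bcl11b*, the summed level of 600.3, 498 and 509 CPM came mainly from *Pde10a*, *Adora2a* was at 0 in all 3 libraries, and no gene of the list was higher in members in any contrast. The microglial list summed to 5.31, 36.0 and 23.6 CPM over 5 genes, the endothelial and mural list to 21.3, 18.003 and 23.6 CPM over 5 genes with *Vtn* the most abundant, and the interneuron list to 85.003, 60.01 and 115 CPM over 8 genes with *Pvalb* at 0 in all 3. The oligodendrocyte list summed to 138, 75.0 and 91.0 CPM over 5 genes. The 6 astrocyte genes summed to 499, 252 and 243 CPM, of which *Slc1a2* gave 77 of 94, 72 of 84 and 66 of 72 counts. All 5 astrocyte genes tested were lower in members than in the *Rorb* class, where the list summed to 795, 917 and 817 CPM, and 3 of the 5 were without *Nav1* KO, without BTBR or with DESeq2. When nuclei with a UMI of *Aqp4*, *Gja1* or *Fgfr3* were left out, the genes that passed in all 3 contrasts numbered 115 higher and 64 lower, of which 105 and 55 were among the 118 and 64.

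Mitochondrial transcripts, a sign of cytoplasm carried along with a nucleus, moved with the contrasts. All 10 tested were higher in members than in layer 2/3 (5.69% of all genes). Of the 10, 3 were higher than in *Rorb* (4.67%) and 2 lower than in layer 6 (2.34%). The medians of the 3 contrasts were 0.97, 0.26 and -0.29. The count against layer 2/3 was 8 to 10 in every alternative. That against *Rorb* was 0 without C57BL/6J, with DESeq2 and with limma voom, 5 without *Nav1* KO, 1 without BTBR and 9 when nuclei with an astrocyte UMI were left out. Against layer 6, 6 were lower without C57BL/6J and 0 without either other library, with DESeq2 or with limma voom. They summed to 7709, 6235 and 5696 CPM in members over 11 genes. With a mitochondrial limit of 5% the counts in all 3 contrasts were 117 higher and 60 lower. Of 13 immediate early and stress genes, 4 were higher and 0 lower than in layer 2/3 (2 and 1 without BTBR). Of all genes 5.69% were higher and 5.94% lower there. *Hspa8*, a heat shock cognate, was higher in all 3 contrasts at 191, 240.0 and 179 CPM. Its calls against *Rorb* and layer 6 were each lost in 5 of 14 alternatives, and it passed in all 3 in no fit without 1 library. The part of either in the differences above was not tested.

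Levels along the summed UMIs of the 4 rule genes are given as a description only, since this sum is the value that chose the members, and they are no check of the label. Only nuclei that met the other limits were counted. Depth rose with the sum, from medians of 2262, 2867 and 2653 UMIs in nuclei with no UMI of the 4 genes to 6839, 6759 and 5768.5 in members with 5 or more, and its part in these levels was not tested. *Bcl11b* was at 71.9, 54.8 and 83.1 CPM in nuclei with no UMI of the 4 genes, at 154 (119–197), 171 (143–202) and 210.3 (175–250.0) CPM in nuclei with 2, just outside the threshold, and at 224 (145–331), 202 (141–279) and 219 (152–306) CPM in members with 3, just inside it. The intervals of nuclei just outside and just inside overlap in each library. Members with 5 or more UMIs had 326, 298 and 297 CPM, from 3, 9 and 10 nuclei. The 15 markers summed did not follow this in every library. They were at 888, 772 and 806 CPM in members with 3 UMIs, at 857, 959.6 and 912 CPM with 4 and at 653, 1192 and 805 CPM with 5 or more, so that the sum was higher at each step in *Nav1* KO members only.

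**Figure D4:**
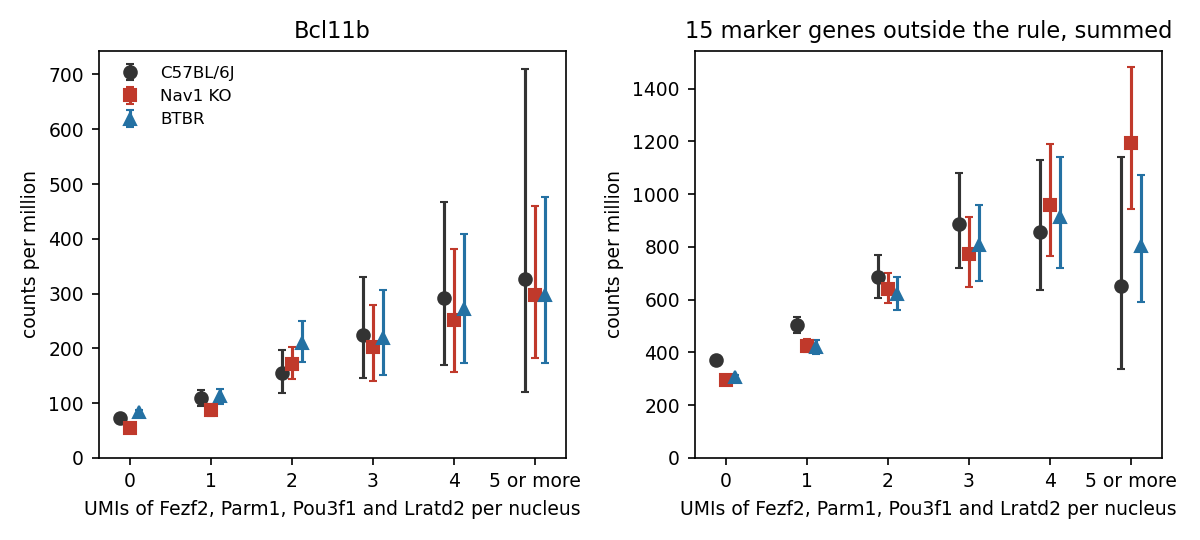
CPM of *Bcl11b* (left) and of the 15 markers summed (right) in excitatory nuclei within the limits on other layers, grouped by the UMIs of the 4 rule genes, with exact 95% intervals per library; members are at 3 and above. *Bcl11b* climbs from 54.8–83.1 CPM at 0 UMIs to 297–326 at 5 or more and its intervals at 2 and 3 overlap, with depth rising along the same axis, whereas the summed markers at 5 or more UMIs are lowest in C57BL/6J (653 CPM) and highest in *Nav1* KO (1192 CPM).

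Between libraries, the question the study set for these data was how the deletion of *Nav1* alters the PFC. Within members, a gene entered the ratio to C57BL/6J when one library of the pair had 50 CPM or more and the second had 20 counts or more. For *Nav1* KO 2601 genes qualified, the median ratio was 0.941, and 161 lay above 1.5-fold and 333 below (19% of genes past 1.5-fold either way). Scaled to a median ratio of 1, 230 lay above and 231 below. For BTBR 2543 genes qualified, the median was 1.03, and 286 lay above and 256 below (21.3%). Scaled in the same way, 258 BTBR ratios lay above and 280 below, so that the larger side changed with the scaling, and among members of 3000 to 8000 UMIs 348 lay above and 217 below (213 and 265 for *Nav1* KO). Both sets of ratios share the 33 C57BL/6J members. Stress, mitochondrial and astrocyte genes were also compared between the members of the 3 libraries. The 16 immediate early and stress genes summed to 759.7, 687 and 1146 CPM in members, and of those compared 2 of 4 were above 1.5-fold in BTBR and 0 of 2 in *Nav1* KO. Mitochondrial transcripts had median ratios of 0.929 in *Nav1* KO and 0.808 in BTBR, with 2 of 10 and 2 of 9 lower by over 1.5-fold. Over all genes compared, 333 of 2601 *Nav1* KO ratios and 256 of 2543 BTBR ratios were lower by over 1.5-fold, and 161 and 286 were higher. *Slc1a2*, the 1 astrocyte gene compared, was at 0.528 and 0.544. The part of these genes in the ratios was not tested. The genes named next are the ends of a ranking and their ratios are therefore extreme by choice.

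The *Nav1* KO ratio of *Nav1* itself was 0.628 (0.498–0.792) in members (144 and 160 counts) and 0.768 (0.699–0.845) in layer 2/3 nuclei. The deleted stretch lies outside the 3′ end that the assay reads, so that a *Nav1* count neither checks the label nor measures a working transcript. The lowest ratios belonged to the noncoding *Gm26917*, *Flrt3*, *Miga1*, *Pcyt2* and *Usp40*. *Flrt3*, an adhesion protein and ligand of latrophilins, went from 276 to 96.02 CPM between these members, a ratio of 0.348 (0.217–0.550), and its layer 2/3 ratio was 0.603 (0.525–0.693). The highest were *Nap1l5*, *Pcsk1n*, *Bbip1*, *Kcnq3* and *Polr3a*. *Kcnq3*, a subunit of the M-type potassium channel, had 12 and 56 counts, a ratio of 2.64 (1.40–5.40), but was at 0.850 (0.735–0.984) in layer 2/3 nuclei. *Pcsk1n*, an inhibitor of a prohormone convertase, was at 2.86 (1.63–5.36) in members and 1.46 (1.24–1.72) in layer 2/3. Among members of 3000 to 8000 UMIs the ratio of *Kcnq3* was 1.59 and that of *Pcsk1n* 4.33. Whether members differ from layer 2/3 nuclei in these ratios was not tested. *Bcl11b* was at a ratio of 0.918 (0.633–1.34), an interval that includes 1.

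In BTBR members *Nav1* had 144 and 53 counts, a ratio of 0.233 (0.167–0.322), and it was also low in BTBR layer 2/3 nuclei at 0.394 (0.342–0.452). This was the second lowest of the 2543 ratios. *AC149090.1*, *mt-Nd3*, *Cd2ap* and *Osbpl3* made up the rest of the low end. *Osbpl3*, an oxysterol binding protein, was low in every class, with 0.302 (0.168–0.526) in members and 0.424 (0.323–0.553) in layer 2/3. *Scg5*, a secretogranin family chaperone of prohormone convertase, led the high end with 371 CPM in BTBR members against 79.7 CPM in the C57BL/6J members, a ratio of 4.65 (2.70–8.59), and it was at 2.92 (2.44–3.49) in layer 2/3 nuclei. It was followed by *Fam57b*, *Izumo4*, *Rab24* and *Mrpl41*. *Mrpl41*, a mitochondrial ribosomal protein gene, was at 2.66 (1.32–5.96) in members and 2.88 (2.28–3.66) in layer 2/3 nuclei, whereas *Rab24*, a small GTPase, was at 2.76 (1.53–5.35) and 1.06 (0.901–1.26). With at least 4 UMIs of the rule genes the ratios were 7.99 for *Scg5*, 1.76 for *Rab24* and 0.197 for *Osbpl3*. *Bcl11b* was at 0.978 (0.671–1.44). *AC149090.1* and *Gm26917* are unnamed gene models, for which reads shared with other copies were not tested. Strain and library cannot be told apart here.

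**Figure D5:**
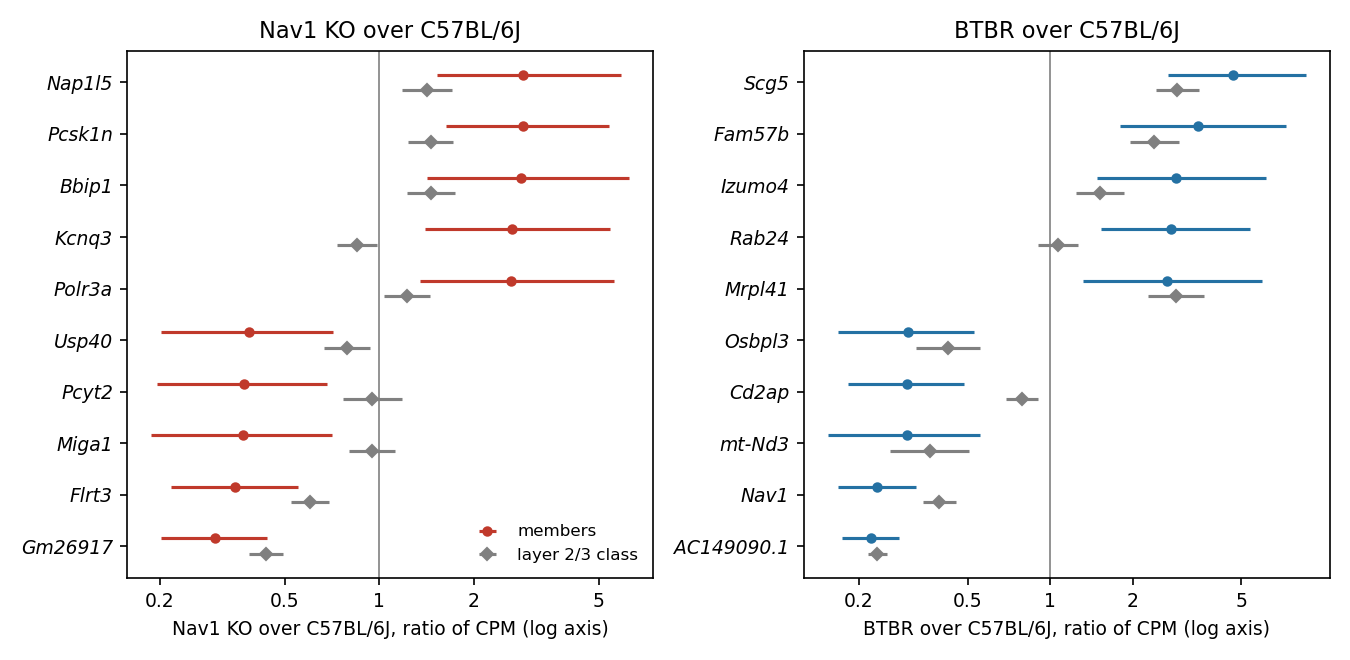
Ratio of CPM to C57BL/6J on a log axis for the 5 highest and 5 lowest genes in members, in *Nav1* KO (left) and BTBR (right), with exact 95% counting intervals; grey diamonds give the same gene in the layer 2/3 class. *Scg5* in BTBR and *Nav1* in BTBR lie on the same side of 1 in both, whereas *Kcnq3* in *Nav1* KO does not.

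*Nnt*, which C57BL/6J mice carry with an internal deletion, had 0, 3 and 5 counts in members and 20.2, 15.05 and 13.5 CPM over all kept nuclei, with C57BL/6J the highest. The deletion does not include the 3′ end that the assay reads, so that these counts check no label. *Xist*, which is silent in males, had 1, 0 and 0 counts in members.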

How the data were processed

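Nuclei of the PFC were sequenced with a 10x Genomics 3′ kit, 1 library per group. C57BL/6J and *Nav1* KO tissue was pooled and sorted, and the protocol names no BTBR mice. The authors aligned the reads to mm10 with Cell Ranger 6.0.0 (submitters' processing notes) and deposited the UMI counts per gene and nucleus, unnormalized, for 15402, 14623 and 15238 barcodes. The filters left 14630, 14056 and 14778 nuclei, and the study states 14630 and 14056 cells for C57BL/6J and *Nav1* KO. Counts were summed per class and library and tested with edgeR 4.0.16 (R 4.3.3) by the quasi-likelihood test with filterByExpr, TMM and a library term, with Benjamini-Hochberg adjustment over 10012 genes at 0.05. Sums of 1 library come from the same tissue preparation, which is the pairing. With the library term, p-values measure how class differences varied across the 3 libraries, on 6 residual degrees of freedom. That spread was moderated over genes (median of 104.6 prior degrees of freedom). The libraries differ in genotype or strain and are not replicates of 1 condition. In simulated counts of 9891 genes, 49, 50 and 44 of 50 genes with a 2-fold rise and 44, 45 and 26 of 50 with a 2-fold fall were called against layer 2/3, *Rorb* and layer 6. The changed genes were drawn only from those above 50 CPM over all sums. All genes had a common dispersion and the classes no other differences, so recovery of scarcer or more variable genes was not tested. DESeq2 1.42.0 and limma 3.58.1 were alternatives. The named genes were the 12 with the largest mean difference at each end that passed in all 3 contrasts with the same sign in every library and reached 50 CPM (unnamed gene models left out), the 5 library ratios at each end, and genes of the lists. Scrublet called 1, 1 and 0 nuclei and so did not work. No doublets were removed, and 0, 3 and 5 members were in the top 10% of scores. Positions are from GENCODE on mm10. Members and gene lists were chosen with earlier results of these data known. Some members of the gene lists are counted but not reported here by name.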

Additional observations from a re-analysis of the deposited data

How the results depend on the processing

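The fit on all 3 libraries called 1165, 985 and 490 genes against the layer 2/3, *Rorb* and layer 6 classes and 182 against all 3. Fits without 1 library called 628 to 856, 524 to 708, 185 to 321 and 65 to 129 genes, with the lowest counts without *Nav1* KO. Of these, 599 to 790, 494 to 660, 176 to 292 and 64 to 119 were shared with the fit on all of them. In the paired design the library is the replicate block, and without the replicate block 536, 395, 243 and 69 passed. With at least 4 UMIs of the rule genes 698, 548, 312 and 118 passed. No gene called in all 3 contrasts was called in the opposite direction in any of the 14 alternatives. The cause of these changes was not tested. The fits without 1 library or with at least 4 UMIs also had fewer libraries or nuclei. The difference of *Crym* from the *Rorb* class, which did not pass, was -0.0825 on the log2 scale without BTBR and 0.687 without *Nav1* KO. Member shares in C57BL/6J, *Nav1* KO and BTBR were 0.458%, 0.772% and 0.849% of excitatory nuclei, 0.0752%, 0.178% and 0.183% with at least 4 UMIs, and 0.0394%, 0.0633% and 0.0954% at 2000 UMIs. Genes past 1.5-fold between libraries were 19% (*Nav1* KO) and 21.3% (BTBR) of those compared. They were 132 of 1110 (11.9%) and 157 of 1060 (14.8%) with 100 CPM and 40 counts required, 478 of 1417 (33.7%) and 565 of 2062 (27.4%) among members of 3000 to 8000 UMIs, and 351 of 1142 (30.7%) and 381 of 1056 (36.1%) with at least 4 UMIs. Precision was limited by the 33 C57BL/6J members and by the 109 nuclei of the layer 6 class, and differences between libraries have no replicate.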
